A study of Equus caballus with 32 samples.

Results

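The genes described here are heat shock proteins and their co-chaperones, the machinery that folds new proteins and refolds damaged ones. Probes were taken when the gene name in the array files was 1 of 10 listed members, which are HSP90AA1, HSP90AB1, HSPA8, HSPD1, HSPE1, HSPH1, DNAJB1, DNAJA1, BAG1 and BAG3. The rule found 19 probes of 7 members, out of 43987 probes and 15072 gene symbols on the array. HSP90AB1 and HSPA8 had 6 probes each, HSPD1 and BAG1 had 2 each, and HSP90AA1, HSPH1 and BAG3 had 1 each. The other 3 members had no probe under that name. For DNAJA1 and DNAJB1, 1 probe each was identified by the gene description in the files, and its values are given separately as lying outside the rule. HSPE1, the partner of HSPD1 in the mitochondrial chaperonin, was not analysed here.

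Blood was drawn from 32 Welsh Pony mares 30 days after weaning. In 16 mares the weaning was labelled brutal and in 16 progressive, and the labels give no further account of either procedure, of the mares' ages or of unweaned controls. Venous blood went into RNA-stabilising tubes, and Cy3-labelled cRNA of each mare was read on an Agilent array of its own. A level here is the log2 of a probe's signal over the 75th percentile of all signals on that array, and a difference is progressive minus brutal. Each mare is 1 replicate.

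The 32 arrays lay on 4 slides, each shared equally by brutal and progressive mares. The lowest 75th percentile was 339.5 and the highest 646 intensity units. The array progressive 16 carried 851 of the 2483 spots that the scanner software marked as outliers. Blood cell identity was checked on lists of markers. A marker was measured only if a probe of it had already passed the filter on signal above background. All 13 measured neutrophil markers, 12 of 13 T cell markers and 9 of 9 B cell markers stood well above background on every array. For these cell types the filter removed no marker that was on the array. Of the measured markers, 5 of 5 erythroid and 5 of 7 platelet markers also did so on every array. However, 9 erythroid and 9 platelet markers were on the array, so these counts leave out markers that were not measured. In such bulk RNA, fewer cells of a type and less RNA per cell cannot be told apart.

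HSP90 and HSP70 are ATP-driven chaperones of the cytosol. HSP70 binds exposed stretches of unfolded clients with the help of J proteins such as DNAJA1 and DNAJB1, and BAG proteins and HSP110 (HSPH1) release its nucleotide. HSP90 acts later, on near-native clients that include kinases and steroid receptors, and in leukocytes the glucocorticoid receptor is held ready for cortisol by this relay. HSPD1 folds proteins inside mitochondria.

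The probes decide what each value can say, so the sequences that separate them are shown first, 5′ to 3′ on the transcript strand as the files give them. Coordinates are those written in the array files, whose headers name the design build EquCab1, and they were not checked against a genome. The probes of HSP90AA1 (chr24:43295683-43296020, minus strand) and the separate HSP90AB1 probe (chr20:36563044-36563384, plus strand) are 60 bases long but span 338 and 341 genomic bases, so each alignment contains a gap. These sequences distinguish both cytosolic HSP90 genes.
HSP90AA1: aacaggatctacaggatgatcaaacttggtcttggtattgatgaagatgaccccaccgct
HSP90AB1, separate probe: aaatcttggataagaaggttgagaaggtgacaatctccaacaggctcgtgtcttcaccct

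The other 5 HSP90AB1 probes start at chr20:36564067-36564126 (plus strand) and each is shifted by 1 base from the next. The first 30 bases of the leftmost of them follow, with the bases that all 5 probes share in capitals. The 5 probes have 56 bases in common and are not separate measurements.
HSP90AB1, leftmost tiled probe: ttccCACATTTGACATCAGGTTTGGATGTT

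HSPA8 was laid out in the same way. Of its 6 probes, 5 tile 1 stretch with 56 shared bases, and the outermost of them lies at chr7:26912609-26912668 (minus strand). The sixth lies apart at chr7:26910576-26910635 (minus strand). Capitals mark the bases shared by all 5 tiled probes, and of the separate probe the first 30 bases are given.
HSPA8, tiled probe: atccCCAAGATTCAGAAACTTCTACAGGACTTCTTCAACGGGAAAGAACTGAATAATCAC
HSPA8, separate probe: ggaaaggaaaataacattgcactttatagg

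The BAG1 probes at chr23:40083786-40083845 and at chr23:40083816-40083875 (minus strand) overlap in the 30 bases printed in capitals, which end the second and begin the first. The BAG3 probe at chr1:12155398-12155457 (minus strand) is printed whole because the correlation with BAG1 described further on rests on it.
BAG1, shared bases: AATGAACGAGTATTGTCTTATAATCTTAAG
BAG3: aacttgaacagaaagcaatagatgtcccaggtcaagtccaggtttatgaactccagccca

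The HSPD1 probes at chr18:61300211-61300270 and chr18:61300272-61300331 (minus strand) are neighbours that do not overlap. The HSPH1 probe lies at chr17:10389300-10389359 (minus strand). The first 30 bases of each are given to tell them apart.
HSPD1, first probe: cagttactggtttcagttgacaacatataa
HSPD1, second probe: cagttgaaggaaatgactgaagaaaaggct
HSPH1: gtcttaccatttgtatcactgaggatgaaa

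No probe of another gene on the array shared a run of 20 bases, on either strand, with any of these probes. All 19 member probes were tested, and 18 of them stood well above background on all 32 arrays. The exception was the BAG1 probe at chr23:40083786-40083845, which did so on 31.

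The first comparison asked whether the chaperones differed between mares after brutal and after progressive weaning. None of the 19 member probes passed the threshold (limma, Benjamini-Hochberg adjusted p below 0.05), and the smallest adjusted p among them was 0.996. The background is the same: of 26379 probes tested, 0 passed, which is 0%, and the count was also 0 with array weights and with slide as a block. At an unadjusted p below 0.05 there were 0 member probes and 728 probes in all (2.76%). With array weights 1332 probes had an unadjusted p below 0.05, and HSPD1 and BAG1 were among the genes whose brightest probe did. The plots of values by mare and of differences show groups that overlap for each probe.

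**Figure D1:**
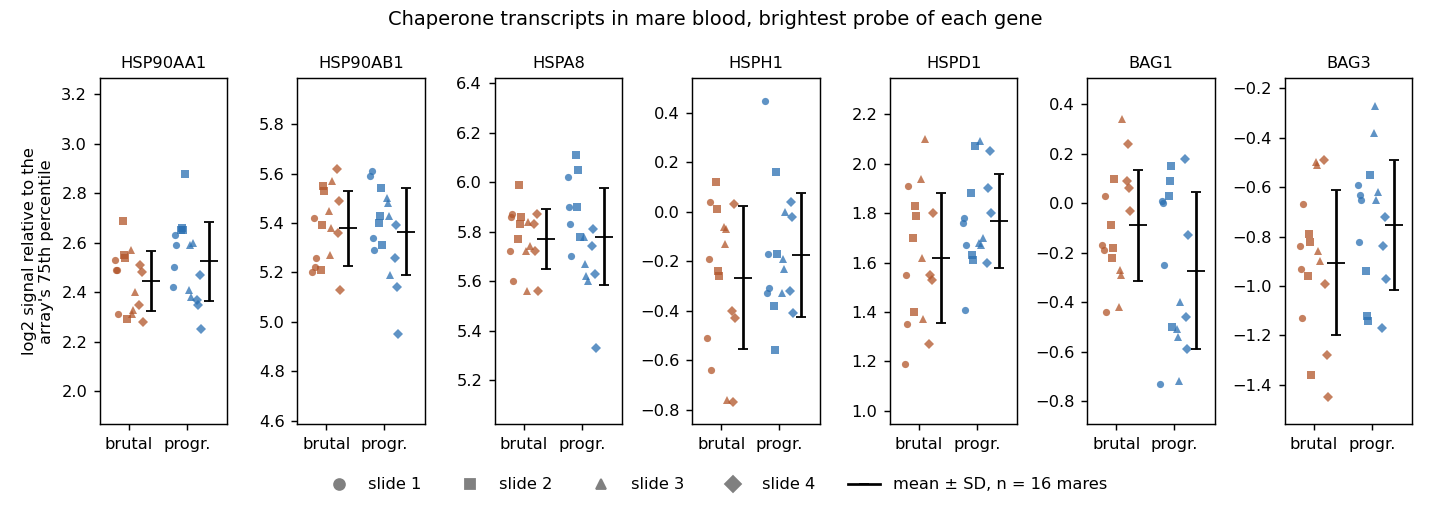
Values of the 7 members in each of the 32 mares, by the brightest probe of each gene, as log2 signal relative to the array's 75th percentile (vertical axes span the same range of log2 units but start at different levels). Symbols mark slides, and black bars give the mean ± SD of 16 mares. The groups overlap in each panel. The 7 lowest BAG1 values are those of progressive mares, a count not determined for genes outside the members.

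HSP90AA1, the stress-inducible cytosolic HSP90, had a lowest value of 2.28, a median of 2.49 and a highest of 2.69 in brutal mares. In progressive mares the corresponding values were 2.25, 2.54 and 2.88. All but 2 arrays lay within the range common to both groups; the exceptions were progressive 16 below it and progressive 8 above it. The means were 2.44 ± 0.12 and 2.52 ± 0.16 (SD, n = 16 each). Their difference of 0.08 ± 0.06 (limma SE) had a 95% interval of -0.03 to 0.19 (adjusted p = 0.996).

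HSP90AB1, the constitutive form, showed next to no difference. Its brightest probe, 1 of the tiled ones, had values of 5.13, 5.39 and 5.62 in brutal mares and 4.95, 5.39 and 5.61 in progressive mares (lowest, median, highest). The medians were equal to 2 decimals, and the lowest 2 arrays of the progressive group were progressive 16 and 15. The difference was -0.01 ± 0.06 (95% interval -0.14 to 0.12), and over the 5 tiled probes it ran from -0.01 to 0.00. The separate probe differed by 0.03 ± 0.05 (95% interval -0.08 to 0.13).

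HSPA8, the constitutive HSP70 of the cytosol, was as close. By its separate probe, brutal mares had 5.56, 5.80 and 5.99 and progressive mares 5.33, 5.78 and 6.11 (lowest, median, highest). Progressive mares held both extremes, progressive 16 at the bottom and progressive 5 at the top. The difference was 0.01 ± 0.06 (95% interval -0.12 to 0.14), and the 5 tiled probes differed by -0.02 to 0.02. One of the tiled probes had a value on 31 arrays, and its fit used those.

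HSPH1, the HSP110 that serves HSP70 as a nucleotide exchange factor and holds unfolded proteins, varied more between mares. It had -0.77, -0.21 and 0.12 in brutal mares and -0.56, -0.21 and 0.45 in progressive mares (lowest, median, highest). Progressive 1 and progressive 7 stood above all brutal mares, while brutal 14, 12 and 4 stood below all progressive mares. The difference was 0.09 ± 0.10 (95% interval -0.10 to 0.29, adjusted p = 0.996). It was 0.05 ± 0.09 without progressive 1, 0.06 ± 0.09 without brutal 12 and likewise without brutal 14, and 0.03 ± 0.09 with array weights.

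HSPD1, the mitochondrial chaperonin HSP60, was higher in mean after progressive weaning by both of its probes, without passing the test. By the brighter probe brutal mares had 1.19, 1.59 and 2.10 and progressive mares 1.41, 1.73 and 2.09 (lowest, median, highest). The arrays below the common range were all brutal, with brutal 1 and brutal 13 the lowest, and brutal 12 was the highest of all. The difference was 0.15 ± 0.08 (95% interval -0.02 to 0.32, unadjusted p = 0.0812, adjusted p = 0.996). With array weights it was 0.23 ± 0.08 (unadjusted p = 0.00809, adjusted p = 0.871). The neighbouring probe differed by 0.09 ± 0.06 (95% interval -0.04 to 0.22). Both probes were higher in progressive mares on 4 of 4 slides, by 0.03 to 0.30 for the first and 0.01 to 0.18 for the second. Over the 32 mares they correlated with each other at r = 0.80, so they are not independent. The share of all genes with the same sign on 4 of 4 slides was not determined.

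BAG1, a nucleotide exchange factor that links HSP70 to the proteasome and to steroid receptors, had the largest difference among the members and the only sizeable one towards lower values. By the brighter probe brutal mares had -0.44, -0.13 and 0.34 and progressive mares -0.73, -0.33 and 0.18 (lowest, median, highest). Outside the common range lay 9 arrays, the most of any member probe. The share of all tested probes with as many was not determined, so this count does not set BAG1 apart. The means were -0.09 ± 0.22 and -0.27 ± 0.32 (SD, n = 16 each), a difference of -0.18 ± 0.10 (95% interval -0.38 to 0.01). The unadjusted p was 0.0671 and the adjusted p 0.996. With array weights the difference was -0.19 ± 0.09 (unadjusted p = 0.0397, adjusted p = 0.871), and as the mean of both probes -0.10 ± 0.08. The dimmer probe, which shares 30 bases with it, differed by -0.02 ± 0.10. Its means were far lower, -3.81 in brutal and -3.84 in progressive mares. Over the 32 mares the BAG1 probes correlated with each other at r = 0.24, so they ranked the mares differently. By slide, the brighter probe differed by -0.05, 0.04, -0.39 and -0.34 on slides 1 to 4.

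BAG3, the stress-induced BAG protein that couples HSP70 to selective autophagy, pointed the other way. It had -1.45, -0.88 and -0.49 in brutal mares and -1.17, -0.68 and -0.27 in progressive mares (lowest, median, highest). Brutal 16, 8 and 15 lay below all progressive mares. The difference of 0.15 ± 0.10 had a 95% interval of -0.05 to 0.35 (unadjusted p = 0.133, adjusted p = 0.996), and its sign was the same on 4 of 4 slides (0.22, 0.04, 0.21 and 0.13). How often this holds among all genes was not determined.

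The J proteins named only by description did not pass either. DNAJB1, a partner of HSP70 that heat shock induces, had 0.41, 1.01 and 1.87 in brutal mares and 0.16, 0.72 and 1.49 in progressive mares (lowest, median, highest). Its highest value, in brutal 16, and its lowest, in progressive 1, both lay beyond the other group. The difference was -0.17 ± 0.13 (95% interval -0.45 to 0.10), and -0.11 ± 0.12 without brutal 16. DNAJA1, which serves HSP70 in folding and import into mitochondria, differed by -0.03 ± 0.07 (95% interval -0.16 to 0.11). The DNAJB1 probe (chrUn:299994597-299994656) is printed because its description alone names it.
DNAJB1: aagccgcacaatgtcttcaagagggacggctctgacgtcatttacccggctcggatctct

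**Figure D2:**
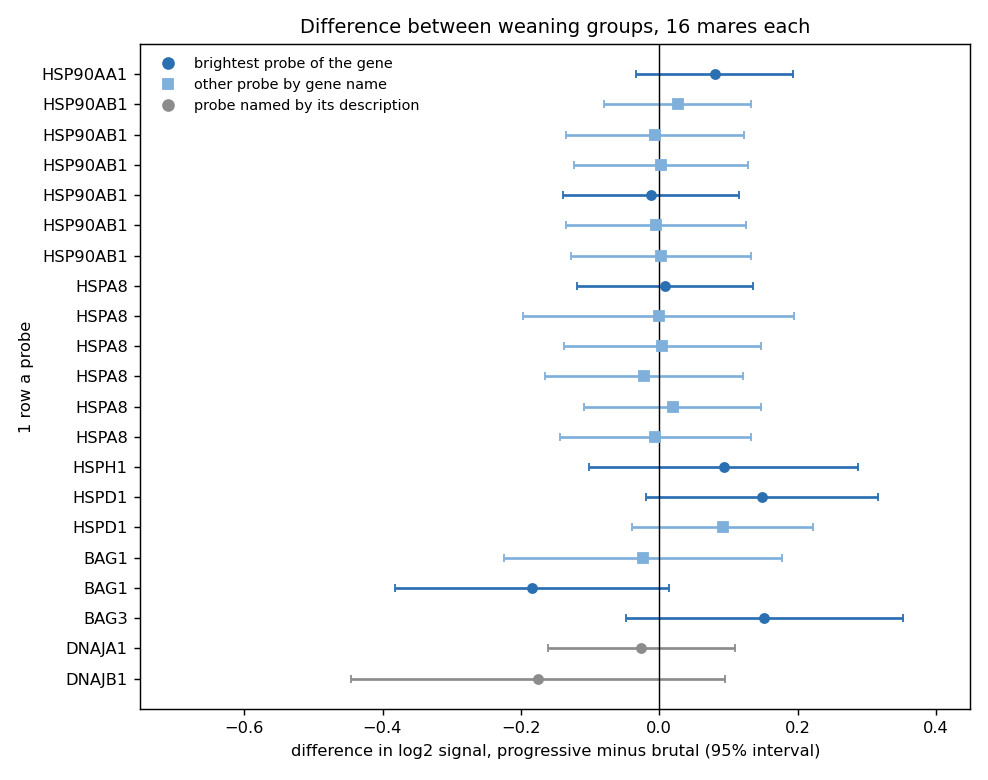
Difference in log2 signal between progressive and brutal mares for each of the 19 member probes and the 2 probes named by description, with 95% intervals from limma (16 mares a group). Dark circles are the brightest probe of a gene. The interval of each probe includes 0; the tiled HSP90AB1 and HSPA8 probes cluster at 0, while BAG1 lies lowest and BAG3 and HSPD1 highest among the members.

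By brightest probes, 5 of the 7 members were higher in mean after progressive weaning (71.4%), with a median difference of 0.08. Among all 9398 tested genes 41.7% were higher and the median was -0.02. The count moved between 4 and 6 over other settings and with single arrays left out. HSP90AB1, negative here, differed by 0.07 under quantile normalization, and HSPA8 by 0.09.

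Marker genes of several blood cell types were measured beside the members. All 13 measured neutrophil markers, 5 of 5 erythroid and 7 of 7 platelet markers were lower in mean in progressive mares, with median differences of -0.24, -0.66 and -0.41, though none passed the test. Of T cell markers 8 of 13, of B cell markers 6 of 9, of NK and cytotoxic markers 4 of 10 and of monocyte markers 2 of 8 were higher. The neutrophil marker score (mean z value per array) ran from -1.29 to 1.06 in brutal and -1.64 to 1.30 in progressive mares, the erythroid score from -1.13 to 2.53 and -1.01 to 1.87, and the platelet score from -0.74 to 1.46 and -1.74 to 1.19. With neutrophil, T cell, erythroid and platelet scores as covariates the difference of BAG1 was -0.03 ± 0.08, that of BAG3 0.03 ± 0.09 and that of HSPD1 0.05 ± 0.08. HSPH1 was at 0.04 ± 0.10, DNAJB1 at -0.02 ± 0.14 and HSP90AA1 at 0.07 ± 0.06 in that fit. The part of blood composition in the differences was not tested further.

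The members differed in their spread between mares. HSP90AA1, HSPA8 and HSP90AB1 varied little, with SDs of 0.15, 0.16 and 0.16 log2 units over the 32 mares. Only 3.81%, 6.67% and 6.60% of all tested genes had an SD as low, and the median gene had 0.30. HSPD1 (SD 0.24), HSPH1 (0.27), BAG3 (0.29) and BAG1 (0.29) were nearer the middle, with 31.1 to 47.1% of genes at or below them. These SDs are of brightest probes, were not matched for signal level, and the contrast did not hold for each other probe. The second HSPD1 probe had 0.17, and 1 tiled HSPA8 probe had 0.27 against 0.16 to 0.19 for the other tiled ones. The other HSP90AB1 probes had 0.13 to 0.17 and the dimmer BAG1 probe 0.275. Between the lowest and the highest mare the range was 1.55-fold for HSP90AA1, 1.59-fold for HSP90AB1 and 1.72-fold for HSPA8, against 2.11-fold for BAG1, 2.27-fold for BAG3 and 2.33-fold for HSPH1. The SD was larger in progressive mares for 4 of the 7 members (57.1%) and for 56.4% of all genes.

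Slides and array rows were checked as technical groups. No member probe differed between slides (limma F test, adjusted p below 0.05), where 2 of 26379 probes did (0.00758%). The nearest was a tiled HSPA8 probe with slide means of 0.69, 0.79, 0.32 and 0.33 (adjusted p = 0.0546), while the other HSPA8 probes had adjusted p of 0.686 to 0.880. Between the array rows of the slides 0 probes passed (0%).

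The next question was whether the chaperones vary together from mare to mare. Correlations were taken between brightest probes over the 32 arrays, for 21 pairs, with permutation p-values adjusted over the 21. In 2 pairs the adjusted p was below 0.05, 1 positive and 1 negative, and in 4 the unadjusted p was. Of 64645 pairs of a member with another gene, 11.4% had an adjusted p below 0.05, 7.67% with a positive r, and 25.9% an unadjusted p below 0.05, so the members' count is near the background. The median r was 0.09 over the 21 pairs and 0.03 over the pairs with other genes.

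HSP90AB1 and HSPA8, the constitutive members of the relay, correlated positively (r = 0.66, permutation p = 2e-05, adjusted p = 0.00042, rho = 0.61, n = 32). Without the 2 arrays farthest from the median of HSP90AB1 r was 0.50, and without progressive 16, the lowest array for both genes, it was 0.55 (adjusted p = 0.0143). By slide r was 0.74, 0.38, 0.57 and 0.91, by group 0.50 in brutal and 0.76 in progressive mares, and with slide by group means subtracted it was 0.71. The relation depended on the probes. The tiled HSP90AB1 probes and the separate HSPA8 probe gave 0.63 to 0.68, the tiled probes of both genes 0.08 to 0.44, and the mean of all probes of each gene 0.45 (adjusted p = 0.0509). HSP90AB1 was the 16th most correlated of 9241 genes for HSPA8, whereas HSPA8 ranked 531st for HSP90AB1.

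BAG1 and BAG3 ran in opposite directions (r = -0.65, permutation p = 5e-05, adjusted p = 0.000525, rho = -0.69, n = 32). Progressive 13, for example, had BAG1 at 0.18 and BAG3 at -1.17, while progressive 10 had BAG1 at -0.54 and BAG3 at -0.27. Without the 2 arrays farthest from the median of BAG1 r stayed at -0.65, and by slide it was -0.58, -0.92, -0.63 and -0.34. It was -0.48 in brutal and -0.75 in progressive mares, and -0.70 with the 4 marker scores regressed out (adjusted p = 0.00021). The dim BAG1 probe gave r = 0.03 with BAG3, and the mean of both BAG1 probes -0.41 (adjusted p = 0.0867). BAG3 ranked 8945th of 9241 genes for BAG1, counted from the highest r, and BAG1 9197th for BAG3.

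**Figure D3:**
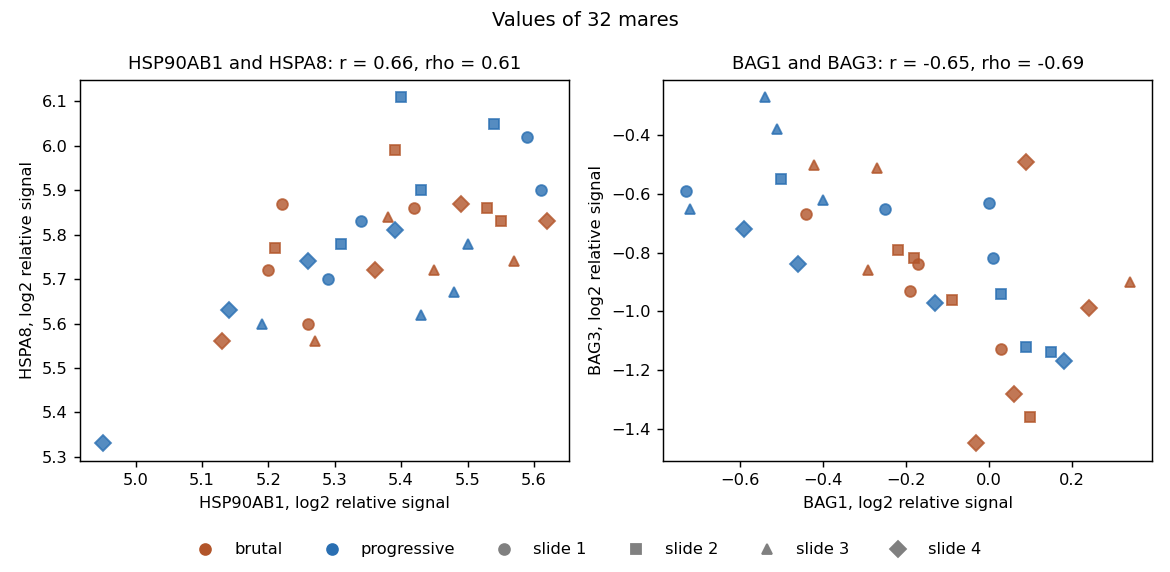
Log2 relative signal of HSP90AB1 against HSPA8 and of BAG1 against BAG3 in 32 mares, coloured by weaning group with symbols for slides. HSP90AB1 and HSPA8 lie along a rising band (r = 0.66) whose lowest point is progressive 16, and BAG1 and BAG3 along a falling one (r = -0.65) that both groups share.

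Levels were also set against the strength of the array signal. Each level has the array's log2 75th percentile subtracted, so part of a negative r with that percentile can come from the subtraction itself. Against the log2 75th percentile signal of the array, BAG1 had r = -0.69 (adjusted p = 0.00042), HSP90AB1 -0.63 (adjusted p = 0.00147), HSPA8 -0.44 and BAG3 0.43 (adjusted p = 0.038 each), by permutation over 32 arrays and 14 relations. The values of rho were -0.69, -0.60, -0.54 and 0.44. Without the 2 farthest arrays r was -0.71, -0.63, -0.39 and 0.45. Within slides r ran from -0.34 to -0.86 for BAG1, from -0.54 to -0.79 for HSP90AB1, from -0.25 to -0.70 for HSPA8 and from -0.08 to 0.91 for BAG3. Over all 9242 genes the median of that r was -0.14 and the quartiles were -0.42 and 0.16. BAG1, HSP90AB1, HSPA8 and BAG3 lay outside the quartiles, as did HSPH1 (0.39) and HSP90AA1 (0.19), while HSPD1 (0.03) lay inside. Many genes lie outside quartiles by definition, so this does not set the members apart. With the percentage of spots well above background, the other array measure of the 14 relations, BAG3 had r = 0.50 (rho = 0.41, permutation p = 0.00409, adjusted p = 0.0191, n = 32) and 0.35 without the 2 farthest arrays. By slide it was 0.13, 0.46, 0.84 and 0.32, and by ranks the adjusted p was 0.062. With the array signal regressed out of both values, r was 0.55 for HSP90AB1 with HSPA8 and -0.54 for BAG1 with BAG3 (adjusted p = 0.00486 each), an alternative chosen after seeing the data. Under quantile normalization r with the array signal was -0.70 for BAG1, 0.07 for HSP90AB1, 0.28 for HSPA8 and 0.39 for BAG3. For HSP90AA1 it was 0.49, for HSPH1 0.39 and for HSPD1 0.15.

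Another scaling gave more pairs past the threshold, 9 of 21 with quantile normalization and 8 with the authors' deposited table. The share among pairs of a member with another gene was not determined under these scalings. Whether the counts exceed that background is therefore not known. HSP90AB1 with BAG1 went from r = 0.11 to -0.66, HSPA8 with BAG1 from 0.24 to -0.56, HSP90AB1 with BAG3 from 0.16 to 0.60, and HSPA8 with HSPH1 from 0.33 to 0.67. The pairs of HSP90AB1 with HSPA8 and BAG1 with BAG3 were at 0.70 and -0.63.

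**Figure D4:**
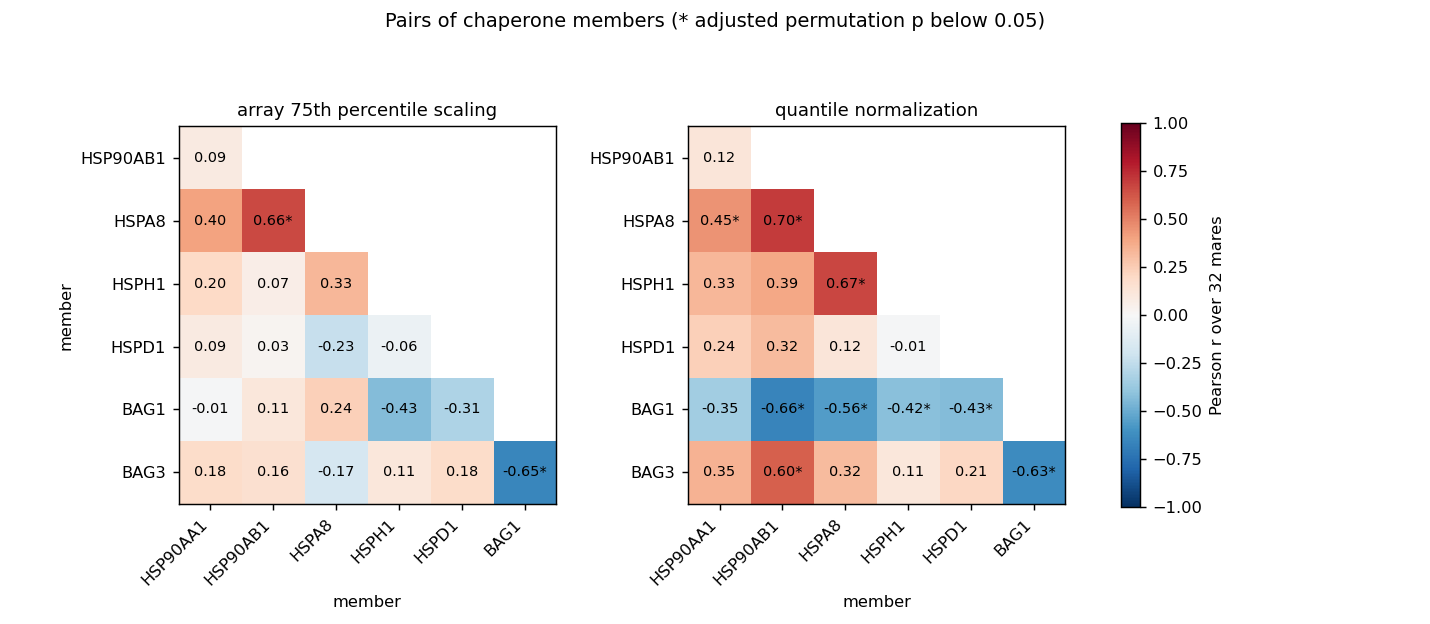
Pearson r over 32 mares for the 21 pairs of members, with values scaled to the array's 75th percentile (left) and quantile normalized (right). Stars mark an adjusted permutation p below 0.05, which 2 pairs reach on the left and 9 on the right. HSP90AB1 and HSPA8 with BAG1 go from positive to negative between the panels.

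Other pairs of known partners or paralogs gave smaller values. HSP90AA1 with HSPH1, both classical targets of heat shock factor, had r = 0.20 (rho = 0.25, permutation p = 0.277, adjusted p = 0.611, n = 32). The paralogs HSP90AA1 and HSP90AB1 had r = 0.09 (rho = 0.07, permutation p = 0.633, adjusted p = 0.782, n = 32), ranging from -0.61 to 0.43 by slide. BAG1 with HSPA8, its binding partner, had r = 0.24 (rho = 0.32, permutation p = 0.194, adjusted p = 0.554, n = 32). HSPA8 with HSPH1 had r = 0.33 (rho = 0.30, permutation p = 0.0651, adjusted p = 0.274, n = 32). With the 4 marker scores regressed out that r was 0.55 (permutation adjusted p = 0.00896). HSP90AA1 with HSPA8 had r = 0.40 (rho = 0.33, permutation p = 0.0237, adjusted p = 0.124, n = 32), but -0.01 with slide by group means subtracted.

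The probes of DNAJA1 and DNAJB1 were set against the 7 members and each other in a separate family of 15 pairs, of which 5 passed. Of 18470 pairs of these probes with genes that are no members, 13.9% had an adjusted p below 0.05. DNAJA1 followed HSPA8 at r = 0.56 (rho = 0.48, permutation p = 0.001, adjusted p = 0.00645, n = 32), with 0.48 without the 2 farthest arrays. DNAJB1 followed BAG1 at r = 0.69 (rho = 0.70, permutation p = 1e-05, the smallest the permutations can give, adjusted p = 0.00015, n = 32). It opposed BAG3 at r = -0.55 (rho = -0.51, permutation p = 0.00129, adjusted p = 0.00645, n = 32). With HSPH1 it had r = -0.42 (rho = -0.36, permutation p = 0.0166, adjusted p = 0.0499, n = 32), which was -0.24 without the 2 farthest arrays and by ranks had an adjusted p of 0.13. DNAJA1 with HSP90AB1 had r = 0.44 (rho = 0.48, permutation p = 0.0124, adjusted p = 0.0466, n = 32).

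Levels of the members were then set against scores of blood cell markers, in 49 relations with permutation p-values adjusted over the 49. In 4 the adjusted p was below 0.05, against 11.4% of 64204 relations of other genes with the same scores. BAG1 rose with the neutrophil score (r = 0.62, rho = 0.55, adjusted p = 0.00686, permutation over 32 arrays), at 0.70, 0.30, 0.42 and 0.68 by slide and 0.49 without the 2 farthest arrays. HSP90AB1 rose with the T cell score (r = 0.59, rho = 0.53, adjusted p = 0.00882, permutation over 32 arrays), at 0.18, 0.47, 0.89 and 0.76 by slide and 0.42 without the 2 farthest arrays. HSPD1 fell as the monocyte score rose (r = -0.50, rho = -0.52, adjusted p = 0.045, permutation over 32 arrays), and r was negative on 4 of 4 slides. HSPH1 fell as the score of NK and cytotoxic cells rose (r = -0.53, rho = -0.37, adjusted p = 0.0348, permutation over 32 arrays), but by ranks the adjusted p was 0.175. With slide by group means subtracted none of the 49 passed. For the 4 relations named above r was then 0.54, 0.57, -0.60 and -0.48, with adjusted p of 0.131, 0.0715, 0.0715 and 0.131. In the main permutation test other relations fell just short. BAG1 had r = 0.47 with the NK and cytotoxic, monocyte and platelet scores (adjusted p = 0.05 each) and 0.44 with the erythroid score (0.0539). HSPD1 had -0.45 with the neutrophil score (adjusted p = 0.05) and -0.44 with the platelet score (0.0539). BAG3 had 0.45 with the T cell score (adjusted p = 0.05). The relations of HSP90AB1 depended on the scaling. Under quantile normalization its r was -0.76 with the neutrophil and -0.59 with the monocyte score (permutation adjusted p = 0.00049 and 0.00474). In the main values these were -0.32 and -0.19. With the T cell score it had r = 0.54 under quantile normalization (permutation adjusted p = 0.0158).

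For each member the genes most like it over the 32 mares were named, leaving out other chaperones. HSP90AB1 was most like PA2G4 (r = 0.90), a growth-regulated RNA-binding protein, and WDR46 (r = 0.90), a nucleolar protein. BAG1 was most like HN1 (r = 0.89) and FTMT (r = 0.88), the mitochondrial ferritin. BAG3 was most like LEF1 (r = 0.84), a transcription factor of naive T cells that is also in the T cell list, and CAD (r = 0.83), which makes pyrimidines. HSPA8 was most like IFI27L2 (r = 0.76) and NMT1 (r = 0.68), a myristoyltransferase.

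HSPD1 was most like PSAT1 (r = 0.71), an enzyme of serine synthesis, and HYKK (r = 0.70). HSPH1 was most like CADM1 (r = 0.69), an adhesion molecule, and SH3GLB1 (r = 0.65), while HSP90AA1 was most like WARS (r = 0.64), a tRNA synthetase, and LDOC1L (r = 0.63). The likeness of HSP90AA1 to WARS was 0.49 without the 2 farthest arrays, the largest loss among these. The DNAJA1 probe was most like NAA20 (r = 0.79) and SAP18 (r = 0.78), and the DNAJB1 probe ALKBH5 (r = 0.82) and RHOB (r = 0.80), a small GTPase. These genes had the highest r out of 9241 and are given as a description.

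The wider chaperone network held 120 listed genes, of which 114 were on the array and 97 were measured. None passed the threshold, against 0% of all probes. An unadjusted p below 0.05 by limma was found for 1 of the 97, and for 241 of all 9398 tested genes. Of the 97, 45 were higher in progressive mares (46.4%) and the median difference was -0.01, against 41.7% and -0.02 for all genes.

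That 1 gene was FKBP5, the co-chaperone that slows the glucocorticoid receptor on HSP90 and that cortisol induces. It averaged 2.86 ± 0.23 in brutal and 3.30 ± 0.49 in progressive mares (SD, n = 16 each), a difference of 0.44 ± 0.13 (unadjusted p = 0.00227, adjusted p = 0.996 by limma). Of the 18 measured genes of the HSP90 system 8 were higher, the lowest difference was -0.12, and TRAP1, the mitochondrial HSP90, had -0.10 ± 0.07.

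Among HSP70 and HSP110 chaperones 7 of 9 were higher, with HSPA2 at 0.25 ± 0.17 and HSPA13 at 0.12 ± 0.16. Among other co-chaperones of HSP70 2 of 10 were higher, with BAG6 at -0.11 ± 0.12 and HSPBAP1 at -0.05 ± 0.06. HSPBAP1 stood in this list although it is known as a partner of HSPB1, a small heat shock protein, and not of HSP70. J proteins were evenly divided, 17 of 36 higher, with DNAJB2 at -0.38 ± 0.19 on a probe well above background on 24 arrays, and SEC63, which works at the translocon of the endoplasmic reticulum, at 0.09 ± 0.05.

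Of the small heat shock proteins 1 of 4 was higher, with HSPB1 at -0.18 ± 0.12 and HSPB7 at 0.22 ± 0.15 on a probe well above background on 23 arrays. The cytosolic chaperonin and prefoldin, which fold actin and tubulin, had 7 of 15 higher, within -0.05 to 0.10, and CCT2 and CCT6A at 0.10 ± 0.07 and 0.08 ± 0.06. Regulators of heat shock transcription had 3 of 5 higher, with HSF5 at 0.29 ± 0.25 and HSBP1, a negative regulator of heat shock factor, at -0.11 ± 0.12. The HSF5 probe was well above background on 29 arrays. In each list the adjusted p values were 0.996 or above.

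**Figure D5:**
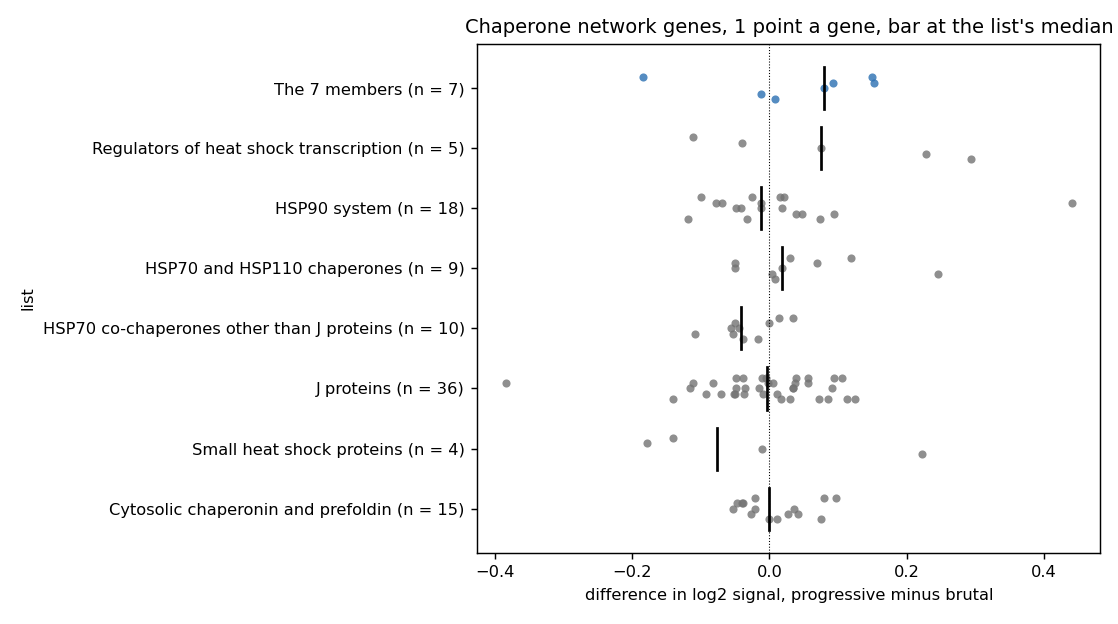
Difference in log2 signal (progressive minus brutal) of the 7 members and of the measured genes of 7 chaperone lists, 1 point a gene by its brightest probe, with a bar at the median of each list. Most points lie close to 0; FKBP5 is the point at 0.44 in the HSP90 system and DNAJB2 the point at -0.38 among the J proteins.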

How the data were processed

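Spot intensity comes from the deposited scanner output, which per the file headers was made with Agilent Feature Extraction 10.10.1.1. The authors' deposited table, used as an alternative, holds log2 values, and no source used here states its normalization. Control spots and spots marked as outliers were left out. The processed signal was divided by the array's 75th percentile and logged (log2), and replicate spots were averaged. Probes well above background on at least 8 of 16 arrays of a group were tested in R 4.3.3 with limma 3.58.1 (a moderated linear model of group only, two-sided, Benjamini-Hochberg over 26379 probes), which was checked on simulated data. A gene stands for its brightest tested probe. Correlations used 100000 permutations in Python 3.11.15, over the 9242 genes without a missing value.

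Named genes were all members, for each the 2 genes of highest r, and the 2 of smallest p in each list. The members and lists were chosen with earlier results of these data known. Promoter motifs and protein sequences were not analysed here. Replicate numbers follow accession order only.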

Additional observations from a re-analysis of the deposited data

How the results depend on the processing

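No paired analysis was possible because nothing in the labels ties individual brutal mares to progressive ones. No member probe passed under any of 12 alternatives or with any 1 of 32 arrays left out, and the adjusted p of members was at least 0.844. Members higher in mean numbered 4 to 6 over the alternatives and 4 to 6 with single arrays left out. BAG1, BAG3, HSPD1, HSPH1 and HSP90AA1 kept their sign throughout.

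HSP90AB1 changed sign to 0.0104 with the 75th percentile over detected probes, 0.0103 with normexp, 0.0707 with quantile normalization, 0.0825 in the series table and 0.00139 as the mean of its probes, and ranged from -0.0284 to 0.0156 with single arrays left out. HSPA8 changed sign to -0.0255 with array weights and -0.00155 as the mean of its probes, and ranged from -0.0141 to 0.0378 with single arrays left out. The cause was not tested.

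Pairs of members past the threshold numbered 2, but 9 with quantile normalization, 8 in the series table, 1 with the mean of a gene's probes and 7 with the array signal regressed out. Relations with marker scores numbered 4, but 11 with quantile normalization, 11 with normexp, 8 with the percentile over detected probes, 12 in the series table, 0 with slide by group means subtracted and 7 without progressive 16. For pairs and marker relations, the shares among other genes under these settings were not determined. Probes differing between slides numbered 2, but 8 with quantile normalization, 8 with normexp, 7 with the percentile over detected probes, 9 in the series table and 4 without progressive 16. Between array rows, a check added after seeing the data, 6 probes passed with quantile normalization. The cause was not tested. The motif search in promoters and the values of HSPE1 were not run, and DNAJA1 and DNAJB1, with 1 probe each, have no mean of probes.

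With 16 mares a group, the 95% intervals of the members' brightest probes allow differences of up to 0.14 (HSPA8) to 0.38 (BAG1) log2 units in size. The interval of the DNAJB1 probe, outside the rule, reached -0.45. The number of arrays limits this precision.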
